A study of Mus musculus with 10 samples.

Results

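The genes examined encode 10 protein-folding chaperones of the cytosol and of the endoplasmic reticulum (ER), taken by gene symbol from tables of 16771 genes. All 10 were found. The cytosolic members were the stress-inducible HSP70 genes Hspa1a and Hspa1b, the constitutive HSP70 gene Hspa8, the HSP90 genes Hsp90aa1 and Hsp90ab1, the HSP110 gene Hsph1 and the HSP40 gene Dnajb1. The ER members were Hspa5, which encodes BiP, Hsp90b1, which encodes GRP94, and Calr, which encodes calreticulin.

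RNA was sequenced from freshly isolated bone marrow cells of C57BL/6 mice in 5 groups of 2 libraries, which the submitters call biological replicates. In 4 groups the cells were lineage-negative haematopoietic stem and progenitor cells (HSPC), from a magnetic kit that depletes cells bearing lineage markers. Their genotypes were wild type (WT), Npm1flox-cA/+;Mx1-Cre+ (Npm1c), Flt3ITD/+ (Flt3-ITD) and Npm1flox-cA/+;Flt3ITD/+;Mx1-Cre+ (double mutant). The fifth group was WT neutrophils from a magnetic isolation kit. Every mutant allele was heterozygous. The Npm1 allele is a conditional one opened by Mx1-Cre, a recombinase under an interferon-inducible promoter that is active in blood cells and in other tissues, whereas the Flt3 allele, an internal tandem duplication in a receptor tyrosine kinase, is present in every cell. The labels give no age, sex, induction scheme or Cre status of the controls.

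HSP70 proteins hold unfolded stretches of other proteins in cycles driven by ATP. HSP40 proteins bring the clients and speed ATP use, HSP110 proteins exchange the nucleotide, and HSP90 takes over partly folded clients such as kinases and steroid receptors. FLT3 with the internal tandem duplication is a known HSP90 client. When unfolded protein builds up in the cytosol, heat shock factor HSF1 binds heat shock elements, inverted repeats of GAA, and switches on HSP70 genes above all. In the ER, unfolded protein activates the sensors IRE1, PERK and ATF6, and the factors they release act on ER stress response elements in the promoters of ER chaperones.

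The promoters are shown first, since they can carry the elements through which these pathways are known to act. RefSeq promoters (GRCm38.p6, mm10) were matched for 7 of the 10 genes, with 9 start sites, and the 250 bases before each start were searched on both strands for the heat shock elements GAANNTTC and TTCNNGAA and for the ER stress response element, CCAAT followed after 9 bases by CCACG. Hspa8, Hsp90aa1 and Hsp90ab1 were not matched. In the sequences of the 2 inducible HSP70 genes (Hspa1a, chr17:34972157-34972406, minus strand; Hspa1b, chr17:34959239-34959488, minus strand) capitals mark the heat shock element.
Hspa1a: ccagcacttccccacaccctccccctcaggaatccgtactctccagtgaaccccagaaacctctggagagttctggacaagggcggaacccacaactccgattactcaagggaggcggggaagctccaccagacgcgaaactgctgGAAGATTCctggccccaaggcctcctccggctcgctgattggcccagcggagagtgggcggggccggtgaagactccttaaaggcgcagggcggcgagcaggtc
Hspa1b: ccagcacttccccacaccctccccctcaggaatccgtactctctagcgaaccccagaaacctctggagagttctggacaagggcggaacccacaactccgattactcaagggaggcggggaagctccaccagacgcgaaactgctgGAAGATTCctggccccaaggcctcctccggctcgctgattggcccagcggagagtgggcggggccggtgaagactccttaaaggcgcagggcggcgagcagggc

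Both carried GAANNTTC 104 bases before the start. The windows were identical at 247 of 250 bases and differed by C44T, T47C and T249G, counted from 1 at the 5′ end, with the base of Hspa1a first. In GENCODE M21 (GRCm38) each has a single transcript, Hspa1a at chr17:34969190-34972156 and Hspa1b at chr17:34956436-34959238, on the same strand with 9952 bases between the end of Hspa1b and the start of Hspa1a. Hsph1 (chr5:149636337-149636586, minus strand) held the other form, TTCNNGAA, 33 bases before its first start.
Hsph1: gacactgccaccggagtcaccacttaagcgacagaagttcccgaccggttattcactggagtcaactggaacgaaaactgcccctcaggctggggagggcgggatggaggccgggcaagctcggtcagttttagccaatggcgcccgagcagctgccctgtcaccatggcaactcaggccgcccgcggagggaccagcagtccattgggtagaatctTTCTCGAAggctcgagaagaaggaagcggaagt

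The 3 ER members (Hspa5, chr2:34771840-34772089, plus strand; Hsp90b1, chr10:86705445-86705694, minus strand; Calr, chr8:84846932-84847181, minus strand) each held the ER stress response element, which is in capitals.
Hspa5: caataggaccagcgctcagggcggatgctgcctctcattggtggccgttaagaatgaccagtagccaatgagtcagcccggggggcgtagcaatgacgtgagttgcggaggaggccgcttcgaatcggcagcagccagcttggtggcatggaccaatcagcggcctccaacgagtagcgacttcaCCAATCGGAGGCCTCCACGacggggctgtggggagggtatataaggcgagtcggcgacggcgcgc
Hsp90b1: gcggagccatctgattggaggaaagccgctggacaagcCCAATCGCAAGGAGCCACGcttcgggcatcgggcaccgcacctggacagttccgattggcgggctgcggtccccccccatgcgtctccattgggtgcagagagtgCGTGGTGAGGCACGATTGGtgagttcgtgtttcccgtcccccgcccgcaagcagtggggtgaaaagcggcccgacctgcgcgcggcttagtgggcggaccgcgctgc
Calr: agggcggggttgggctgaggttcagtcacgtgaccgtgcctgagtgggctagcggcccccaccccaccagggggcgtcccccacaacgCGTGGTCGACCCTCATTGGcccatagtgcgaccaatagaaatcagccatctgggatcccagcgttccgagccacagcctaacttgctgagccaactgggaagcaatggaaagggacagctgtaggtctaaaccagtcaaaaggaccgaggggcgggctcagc

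The element lay 65 bases before the start of Hspa5, 162 before that of Calr, and 212 and 107 before that of Hsp90b1, which held it in 2 copies. Capitals that begin with CGTGG are a match on the opposite strand. It occurred in 0.113% of 32851 promoters of the same length, whereas GAANNTTC occurred in 6.69% and TTCNNGAA in 7.17%, so that a heat shock element of this short form is a common string. Neither element was in the window of Dnajb1. Among 20 genes for ER folding enzymes and co-chaperones with a promoter sequence, 6 held the ER element (30% of them), namely Canx, Pdia6, Dnajc3, Creld2, Syvn1 and Derl3, whereas none of the 10 sensors and factors of the unfolded protein response did. These are matches of letters and not measured binding.

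The libraries held 40783015 to 57824373 reads, as recovered from the deposited RPKM (reads per unit of gene length and of library size), of which 60.9% to 81.3% fell on the listed genes. The log2 change of the median gene was not 0. Against WT HSPC the median gene stood at -0.26 for Npm1c, -0.14 for Flt3-ITD, -0.34 for the double mutant and -0.70 for neutrophils, and for the interaction at 0.09. Below, a log2 change is a difference of mean log2(RPKM + 0.5) on the deposited scale with its standard error (SE, n = 2 libraries per group), followed by the same change relative to the median gene. Rose and fell refer to the limma test on the deposited scale at an adjusted p of 0.05 over all genes tested. Summed RPKM of 10 HSPC genes was 94.6 to 138.6 in HSPC libraries and 18.6 to 19.0 in neutrophils, and that of 15 late neutrophil genes was 62.1 to 440.3 and 104237 to 104454. Within the HSPC the progenitor factor Myb was at 59.8 and 58.4 RPKM in WT and 10.4 and 10.5 in the double mutant, while the marker Cd48 was at 18.8 and 18.6 against 63.9 and 64.8, so single HSPC genes differed in both directions. Summed erythroid RPKM (12 genes) was 773 to 807 in WT and 1087 to 1105 in the double mutant. Of the 12, 7 fell and 3 rose, all globins, where 58.9% and 23.9% of all genes did, so the counts are near that background. Under median-of-ratios scaling of the libraries 7 were lower and 5 higher (35.4% and 41.1% of all genes). Hbb-bs went from 105 and 112 to 408 and 404 RPKM, and the erythroid factor Klf1 from 139 and 149 to 53.2 and 50.2. Flt3-ITD replicates 1 and 2 differed more from each other than any other pair (chi-square per degree of freedom 31.0, against 2.24 to 10.5 in the other groups). Y-linked genes, 4 in sum, were at 12.5 RPKM in Npm1c replicate 2 and 13.4 in Flt3-ITD replicate 1 and at most at 0.00813 in the other libraries.

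Levels of different genes were compared after the length the authors had used was replaced by the merged exon length, because the deposited values of genes with many annotated transcripts were lower than by merged exons (2.93 times for Hsph1). On that length-corrected scale WT HSPC held Hsp90ab1 at 904 ± 20.4 RPKM (SD, n = 2) and Hspa8 at 714 ± 14.2, the 22nd and 35th highest of 16038 genes. Hsp90aa1 followed at 443 ± 12.05 and Calr at 424 ± 7.18, with libraries at 452 and 435 and at 429 and 419, close to each other but not overlapping. Hspa5 (129 ± 1.87) and Hsp90b1 (125 ± 5.41) overlapped. Dnajb1 stood at 27.5 ± 1.15 and Hsph1 at 8.98 ± 1.14. The inducible genes Hspa1b (0.509 ± 0.0649) and Hspa1a (0.214 ± 0.0439) were the lowest.

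**Figure D1:**
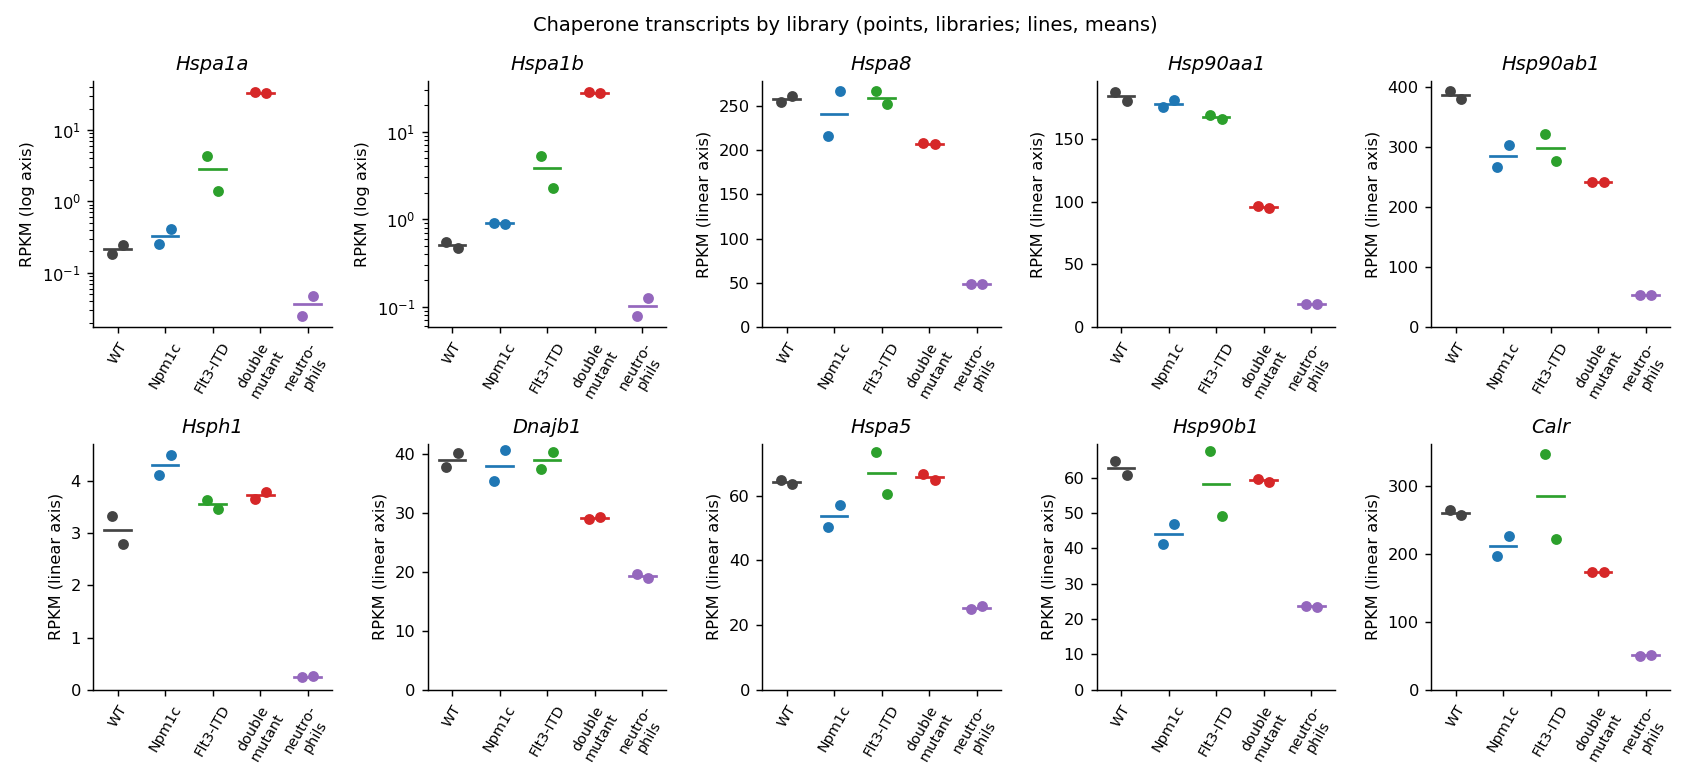
Deposited RPKM of the 10 chaperone genes (vertical axis; log axis for Hspa1a and Hspa1b, linear from 0 for the others) in the 5 groups, with 1 point per library and a line at the mean of 2. Hspa1a runs from about 0.2 in WT to 33.1 and 34.01 RPKM in the double mutant, while Hsp90aa1 is lowest among HSPC in the double mutant (95.4 and 97.0) and the neutrophil points lie below every HSPC point of each gene.

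Hspa1a and Hspa1b encode proteins of near-identical sequence and are the HSP70 genes that heat and proteotoxic stress induce. They were barely read in WT HSPC and high in the double mutant. Hspa1a stood at 0.183 and 0.245 RPKM in WT (30 and 42 reads), 0.256 and 0.408 in Npm1c cells, 4.31 and 1.40 in Flt3-ITD cells, 34.01 and 33.1 in the double mutant (4484 and 4761 reads) and 0.0248 and 0.0471 in neutrophils (3 and 6 reads). The groups did not overlap, and the order was neutrophils, WT, Npm1c, Flt3-ITD and double mutant. Hspa1b took the same order, at 0.555 and 0.463 RPKM in WT, 0.907 and 0.883 in Npm1c cells, 5.30 and 2.27 in Flt3-ITD cells, 28.1 and 27.6 in the double mutant and 0.0788 and 0.125 in neutrophils. Between neighbouring groups WT and Npm1c did not pass the test for either gene, with log2 changes of 0.22 ± 0.37 (0.48 relative to the median gene; adjusted p = 0.628) and 0.47 ± 0.29 (0.73; adjusted p = 0.198).

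In the double mutant the mean level of Hspa1a was 157-fold and that of Hspa1b 54.8-fold the WT level. Both genes were under 1 RPKM in every WT and Npm1c library. They reached the expression minimum only through Flt3-ITD and double mutant libraries, where they were high. Their tests with the filter are therefore by themselves no support for a rise. With no filter, the limma adjusted p against WT was 7.264e-05 and 4.965e-05 in the double mutant and 0.0242 and 0.0154 in Flt3-ITD. The log2 change was 5.58 ± 0.37 for Hspa1a (5.92 relative to the median gene; adjusted p = 8.8e-06) and 4.82 ± 0.29 for Hspa1b (5.15; adjusted p = 5.69e-06), so both rose. Both also rose in Flt3-ITD, by 2.08 ± 0.37 (2.22; adjusted p = 0.00901) and 1.99 ± 0.29 (2.14; adjusted p = 0.00545), and both were lower in Npm1c than in Flt3-ITD (-1.87 ± 0.37, adjusted p = 0.0212, and -1.52 ± 0.29, adjusted p = 0.0189). Against Npm1c the double mutant was higher by 5.36 ± 0.37 for Hspa1a (adjusted p = 1.29e-05) and 4.35 ± 0.29 for Hspa1b (1.10e-05), and against Flt3-ITD by 3.50 ± 0.37 (1.11e-04) and 2.82 ± 0.29 (9.70e-05). The Flt3-ITD change of Hspa1a was 1.41 without Flt3-ITD replicate 1 and 2.75 without replicate 2. Its call ended without either WT replicate (adjusted p = 0.0662 and 0.0608) and when only these 2 groups were fitted (0.0550), and both Npm1c against Flt3-ITD calls ended without either Npm1c replicate (adjusted p from 0.0848 to 0.124) and with only these groups fitted (0.114 and 0.108).

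The double mutant lay above the sum of the single-mutant changes. The interaction, the double mutant change less the sum of both single-mutant changes, was 3.28 ± 0.53 for Hspa1a (3.19 relative to the median gene; adjusted p = 0.00131) and 2.35 ± 0.41 for Hspa1b (2.26; adjusted p = 0.00201). With their RPKM summed, since reads may be shared between them, the interaction was 2.76 and the double mutant change 5.66 (adjusted p = 6e-06). On the length-corrected scale the 2 genes made up 0.0977% to 0.105% of the cytosolic HSP70 level (with Hspa8) in WT, 0.175% to 0.194% in Npm1c, 0.524% and 1.28% in Flt3-ITD but 9.61% to 9.73% in the double mutant. Hspa1a was at 0.330 and 0.529 of the level of Hspa1b in WT, and at 1.21 and 1.20 in the double mutant. In WT this ratio rests on 30 and 42 reads of Hspa1a and 86 and 75 of Hspa1b. The split of reads between the genes is uncertain, since the treatment of multiply mapped reads was not given.

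Summed RPKM of 15 immediate early genes, which like Hspa1a and Hspa1b respond to stress and to handling of cells, was 53.9 to 54.3 in WT, 55.0 to 58.2 in Npm1c, 60.3 to 88.9 in Flt3-ITD and 572 to 585 in the double mutant. In neutrophils it was 761 to 783, where the 2 HSP70 genes were at their lowest. Of the 14 immediate early genes tested 13 rose in the double mutant and 0 fell by limma (0 also at an unadjusted p under 0.05), where 23.9% and 58.9% of all genes did. Under median-of-ratios scaling 14 were higher and 0 lower (41.1% and 35.4% of all genes). Among those that rose were Btg2 (9.47 and 9.89 RPKM in WT, 88.7 and 85.3 in the double mutant), Zfp36 (5.93 and 6.12, 78.6 and 76.9) and Klf6 (7.95 and 8.09, 83.5 and 80.2). Summed RPKM of 10 monocyte and macrophage genes was 78.7 to 78.9 in WT and 693 to 698 in the double mutant, mostly from Mpeg1, a macrophage pore-forming protein, at 22.5 and 20.7 against 580 and 578. Of the 10, 8 rose and 0 fell by limma (0 also at an unadjusted p under 0.05), against the same shares of all genes, and the counts were equal under median-of-ratios scaling. Ly6c2, the highest of them in WT, was at 37.7 and 39.7 against 23.4 and 23.2. Summed RPKM of 12 plasma cell and B cell genes was 230 to 234 in WT and 23.1 to 28.6 in the double mutant. The difference was mostly from Jchain, the joining chain of antibodies, at 207 and 208 against 8.19 and 9.18. Of the 8 tested 5 fell and 1 rose, with equal counts under median-of-ratios scaling and against the same shares of all genes. Cd79b was at 4.38 and 4.96 against 3.58 and 4.86. No gene of these lists was at 0 in both libraries of a group. The part of these differences in the rise of Hspa1a and Hspa1b was not tested, and fewer cells of a type cannot be told apart from less RNA per cell in such bulk libraries.

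**Figure D2:**
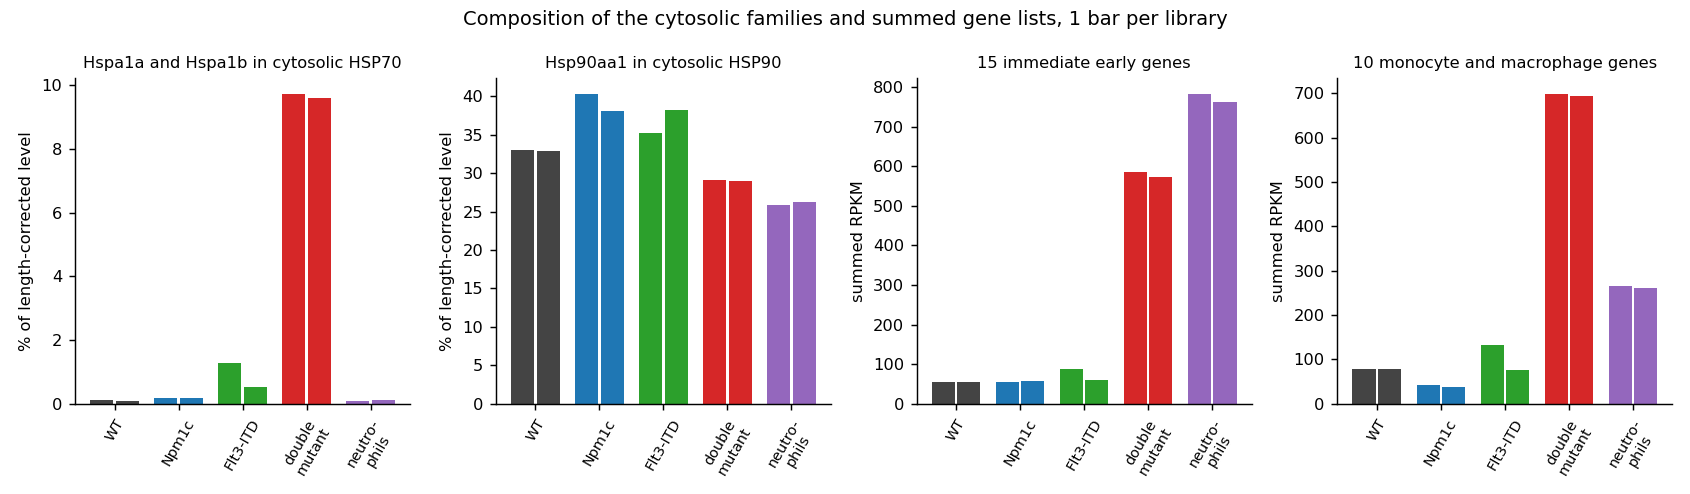
Hspa1a and Hspa1b as a percentage of cytosolic HSP70, Hsp90aa1 as a percentage of cytosolic HSP90 (both on the length-corrected scale), and summed RPKM of 15 immediate early and 10 monocyte and macrophage genes, with 1 bar per library in 5 groups. The double mutant bars reach 9.61% to 9.73% for HSP70 against at most 1.28% elsewhere, and 28.9% to 29.2% for Hsp90aa1 against 32.8% to 40.3% in the other HSPC groups.

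Of the other cytosolic chaperones, Hspa8, Hsp90aa1, Hsp90ab1 and Dnajb1 did not follow Hspa1a and Hspa1b, although Hsp90aa1 and Dnajb1 are inducible too. Hspa8 (chr9:40800984-40810087), which folds new proteins and uncoats clathrin, stood at 254 and 262 RPKM in WT, 216 and 266 in Npm1c cells, 267 and 252 in Flt3-ITD cells, 208 and 206 in the double mutant and 48.8 and 49.1 in neutrophils. The 3 other HSPC groups overlapped, and the double mutant libraries were the lowest of the HSPC libraries. Hspa8 fell in the double mutant on the deposited scale (-0.31 ± 0.095; adjusted p = 0.0173), but relative to the median gene it was at 0.02, and under median-of-ratios scaling its change was 0.11 (adjusted p = 0.229). The call also ended without any 1 of the 4 libraries compared (adjusted p from 0.0552 to 0.0806).

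Hsp90aa1 (chr12:110690605-110702728), the inducible HSP90 isoform, showed the clearest fall. It stood at 188 and 181 RPKM in WT, 175 and 181 in Npm1c cells, 170 and 166 in Flt3-ITD cells, 97.0 and 95.4 in the double mutant and 18.1 and 18.5 in neutrophils. WT and Npm1c overlapped, and the double mutant libraries were far below the other HSPC. Its log2 change was -0.94 ± 0.048 (-0.60 relative to the median gene; adjusted p = 2.61e-06) against WT, -0.89 ± 0.048 (-0.80; adjusted p = 3.68e-06) against Npm1c and -0.80 ± 0.048 (-0.62; adjusted p = 6.67e-06) against Flt3-ITD, comparisons that share the double mutant libraries. The single mutants did not pass the test against WT, at -0.05 ± 0.048 in Npm1c (adjusted p = 0.392; 0.23 and adjusted p = 0.0106 under median-of-ratios scaling, with the same sign under 2 further scalings) and -0.13 ± 0.048 in Flt3-ITD (adjusted p = 0.0694). The interaction was -0.75 ± 0.067 (-0.85; adjusted p = 8.08e-05).

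Hsp90ab1 (chr17:45567775-45573271), the constitutive HSP90 isoform and the most abundant of the 10 in WT, stood at 393 and 380 RPKM in WT, 267 and 302 in Npm1c cells, 321 and 277 in Flt3-ITD cells, 242 and 241 in the double mutant and 53.4 and 53.5 in neutrophils. All mutant libraries were below both WT libraries, and the single mutants overlapped. It fell in all mutants: in Npm1c (-0.44 ± 0.088; -0.18 relative; adjusted p = 0.00575), Flt3-ITD (-0.37 ± 0.088; -0.23; adjusted p = 0.0196) and the double mutant (-0.68 ± 0.088; -0.34; adjusted p = 2.52e-04), which share the WT libraries. Both single-mutant calls ended with median-of-ratios scaling (0.0566 and 0.0534, adjusted p), and that in Flt3-ITD also without either WT replicate (0.112 and 0.0896) and with only these groups fitted (0.0647). Its interaction was 0.14 ± 0.12 (adjusted p = 0.345). Because the isoforms moved unequally, Hsp90aa1 made up 32.8% to 33.0% of the length-corrected HSP90 level in WT, 38.1% to 40.3% in Npm1c, 35.2% to 38.2% in Flt3-ITD and only 28.9% to 29.2% in the double mutant.

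The partners of HSP70 differed from each other. Hsph1 (chr5:149614287-149636376), the HSP110 nucleotide exchange factor, was low and stood at 3.34 and 2.79 RPKM in WT, 4.12 and 4.50 in Npm1c cells, 3.64 and 3.47 in Flt3-ITD cells, 3.65 and 3.79 in the double mutant and 0.237 and 0.254 in neutrophils. Npm1c was highest and WT lowest among HSPC. Hsph1 rose in Npm1c (0.44 ± 0.085; 0.70 relative; adjusted p = 0.00552) and in the double mutant (0.25 ± 0.085; 0.59; adjusted p = 0.0279), and in Flt3-ITD its change was 0.19 ± 0.085 (0.33; adjusted p = 0.127; 0.0275 under median-of-ratios scaling). The double mutant call ended without WT replicate 2 (adjusted p = 0.177) and without either double mutant replicate (0.0703 and 0.120). The interaction was -0.38 ± 0.12 (adjusted p = 0.0275), at 0.109 with a term for Y-linked genes and from 0.0614 to 0.0895 without WT replicate 2, Npm1c replicate 2 or either double mutant replicate.

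Dnajb1 (chr8:83608193-83612653), the HSP40 that works with HSP70 and is itself a heat shock gene, stood at 37.8 and 40.1 RPKM in WT, 35.4 and 40.6 in Npm1c cells, 37.4 and 40.3 in Flt3-ITD cells, 28.9 and 29.3 in the double mutant and 19.7 and 18.9 in neutrophils. The 3 other HSPC groups overlapped, and the double mutant was below them. It fell in the double mutant (-0.42 ± 0.077; adjusted p = 0.00165), although relative to the median gene it was at -0.08 and under median-of-ratios scaling at 0.01 (adjusted p = 0.9498). Quantile normalization also ended the call (0.0530). The interaction was -0.37 ± 0.11 (-0.46; adjusted p = 0.0192), at 0.0646 with a term for Y-linked genes and from 0.0570 to 0.0722 without WT replicate 1 or either double mutant replicate.

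**Figure D3:**
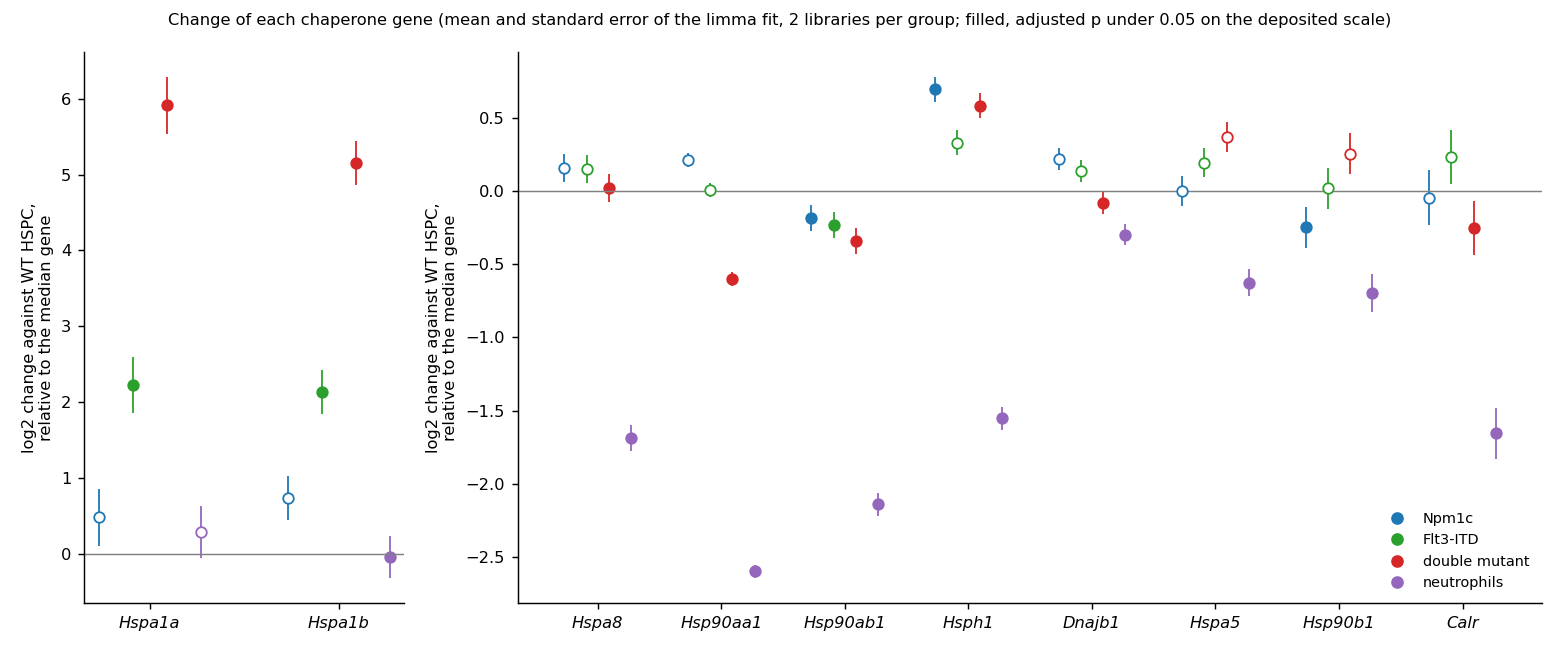
Log2 change of each chaperone gene against WT HSPC relative to the median gene (vertical axis, separate scales for the 2 panels), for Npm1c, Flt3-ITD, double mutant and neutrophils, with the standard error of the limma fit over 2 libraries per group. Filled points passed the test on the deposited scale. Hspa1a and Hspa1b lie at 5.92 and 5.15 in the double mutant and at 2.22 and 2.14 in Flt3-ITD, and in neutrophils the other genes lie between -0.30 and -2.60.

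Of the ER members, Hspa5 and Hsp90b1 did not pass the test in the double mutant against WT, and Calr fell. Hspa5 (chr2:34771970-34777547), the HSP70 of the ER lumen that also holds the stress sensors inactive, stood at 64.9 and 63.6 RPKM in WT, 50.3 and 57.1 in Npm1c cells, 73.6 and 60.4 in Flt3-ITD cells, 66.9 and 64.8 in the double mutant and 24.97 and 25.7 in neutrophils. Npm1c was the lowest HSPC group, and the double mutant overlapped WT. Hspa5 did not pass the test in the double mutant (0.04 ± 0.10; adjusted p = 0.755), but relative to the median gene it was at 0.37, and it was higher under median-of-ratios scaling (0.46; adjusted p = 5.88e-04). It was higher in the double mutant than in Npm1c (0.29 ± 0.10; 0.38 relative; adjusted p = 0.0302), a call that ended without Npm1c replicate 1 (adjusted p = 0.168), without either double mutant replicate (0.123 and 0.0830) and with no filter on low values (0.0525).

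Hsp90b1 (chr10:86690209-86705509), the ER HSP90 that matures integrins and Toll-like receptors, stood at 64.6 and 60.8 RPKM in WT, 41.2 and 46.9 in Npm1c cells, 67.4 and 49.1 in Flt3-ITD cells, 59.7 and 58.7 in the double mutant and 23.6 and 23.5 in neutrophils. Npm1c was again lowest, and Flt3-ITD spanned WT. Hsp90b1 fell in Npm1c (-0.51 ± 0.14; -0.25 relative; adjusted p = 0.0187) and was higher in the double mutant than in Npm1c (0.43 ± 0.14; 0.52; adjusted p = 0.0260). In the double mutant against WT it was at -0.08 ± 0.14 (0.26 relative; adjusted p = 0.606; 0.34 and adjusted p = 0.01995 under median-of-ratios scaling). Its interaction was 0.55 ± 0.20 (0.46; adjusted p = 0.0425), and ended under the replicate block (adjusted p = 0.0505), with no filter (0.0783) and without any 1 library outside Flt3-ITD (0.0542 to 0.135). The Npm1c call ended with scaling by median of ratios (adjusted p = 0.118) or to the listed genes (0.0585), and without either WT replicate or Npm1c replicate 1 (0.0638 to 0.111). The double mutant against Npm1c call ended without either double mutant replicate or Npm1c replicate 1 (0.0810 to 0.141) and with no filter (0.0501).

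Calr (chr8:84841850-84846934), a calcium-binding lectin chaperone of glycoproteins, stood at 264 and 258 RPKM in WT, 197 and 227 in Npm1c cells, 347 and 222.5 in Flt3-ITD cells, 174 and 173 in the double mutant and 49.7 and 51.5 in neutrophils. The double mutant was the lowest HSPC group, and the 2 Flt3-ITD libraries lay on either side of WT. Calr fell in the double mutant (-0.59 ± 0.19; -0.25 relative; adjusted p = 0.0208), a call that ended under median-of-ratios scaling (-0.16; adjusted p = 0.353), under 2 further scalings (0.0513 and 0.109) and without any 1 of the 4 libraries (0.0687 to 0.0817). Against Flt3-ITD the double mutant was at -0.68 ± 0.19 (adjusted p = 0.0122, or 0.0515 with only these groups fitted), at -0.36 without replicate 1 of Flt3-ITD (adjusted p = 0.0052) and at -1.001 without replicate 2 (2.78e-05). In Flt3-ITD Calr was at 0.09 ± 0.19 (adjusted p = 0.738), at -0.23 without replicate 1 (adjusted p = 0.0484) and at 0.41 without replicate 2 (adjusted p = 0.00989). Although the 3 ER genes share the ER element, Calr differed in pattern from the others: over the 8 HSPC libraries its Pearson correlation was 0.435 with Hspa5 and 0.447 with Hsp90b1, whereas Hspa5 and Hsp90b1 were at 0.943. These libraries share a group structure, and the values are a description.

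**Figure D4:**
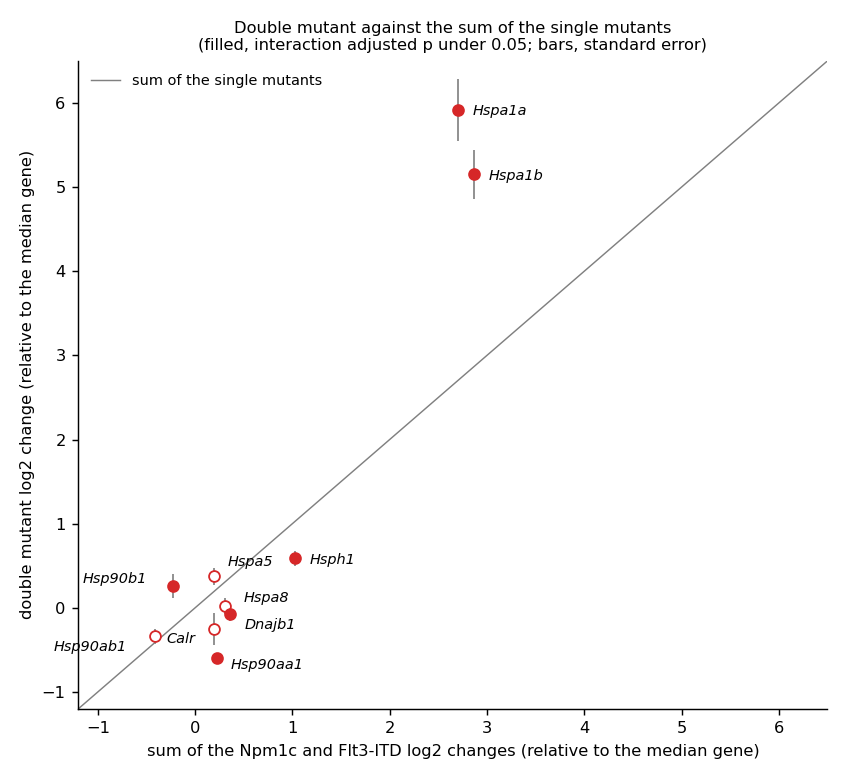
Log2 change of each gene in the double mutant (vertical axis, with its standard error) against the sum of the Npm1c and Flt3-ITD changes (horizontal axis), all against WT and relative to the median gene. The line is equality, filled points passed the interaction test. Hspa1a and Hspa1b lie 3.19 and 2.26 above the line, Hsp90b1 lies 0.46 above it, and Hsp90aa1 (0.85), Hsph1 (0.47) and Dnajb1 (0.46) lie below it.

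Counted over the 10 genes, 1 rose and 2 fell in Npm1c, where 2.49% of 9702 genes tested rose and 58.1% fell. In Flt3-ITD 2 rose and 1 fell, against 1.86% and 31.3%. The 2 that rose were Hspa1a and Hspa1b, near-identical neighbours whose reads may be shared, so they are not 2 separate results. In the double mutant 3 rose and 5 fell, against 23.9% and 58.9% of all genes, which is near that background. Hspa1a and Hspa1b were again 2 of the 3 that rose. They reached the expression minimum only through Flt3-ITD and double mutant libraries, so their place in these counts is no support for a rise. The same pair is among the genes higher in the double mutant than in each single mutant. Against Npm1c the double mutant was higher for 4 and lower for 3 (34.4% and 43% of all genes), and against Flt3-ITD for 2 and 5 (28.6% and 48.8%). Npm1c was lower than Flt3-ITD for 2 and higher for 0 by limma (15% and 2.48%), with 1 higher at an unadjusted p under 0.05. The interaction was positive for 3 and negative for 3 (39.2% and 27.6%). With median-of-ratios scaling, the higher and lower counts became 2 and 0 in Npm1c (16.6% and 21.6% of all genes), 3 and 0 in Flt3-ITD (8.18% and 10.1%) and 5 and 2 in the double mutant (41.1% and 35.4%). They were 4 and 2 against Npm1c (42.9% and 36.3%), 5 and 2 against Flt3-ITD (41.8% and 35.3%), 2 and 2 for Npm1c against Flt3-ITD (6.93% and 13.2%) and 3 and 3 for the interaction (40.8% and 31.3%). In Npm1c and in Flt3-ITD 1 gene each was lower at an unadjusted p under 0.05 with that scaling.

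The other genes of these pathways were read from lists, and each count of 0 given for a list was also 0 in limma at an unadjusted p under 0.05, except where stated. Their counts in the double mutant stand against 23.9% of all genes that rose and 58.9% that fell (41.1% and 35.4% under median-of-ratios scaling). All 7 mitochondrial chaperones fell and 0 rose, with a median log2 change of -0.66 relative to the median gene. Hspa9, the mitochondrial HSP70, went from 121 and 115 RPKM in WT to 52.0 and 52.6 (-1.16 ± 0.062; adjusted p = 3.29e-06). Dnaja3, its HSP40 partner, had a change of -1.09 ± 0.049 (adjusted p = 1.58e-06), and Trap1, the mitochondrial HSP90, of -0.99 ± 0.047 (adjusted p = 1.94e-06). Under median-of-ratios scaling 5 of the 7 fell.

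Of 13 subunits of TRiC and prefoldin, the ring chaperonin for actin and tubulin and its helper, 11 fell and 1 rose (10 and 2 under median-of-ratios scaling), with a median of -0.38 relative to the median gene. Tcp1 went from 48.3 and 48.4 to 24.5 and 24.6 RPKM (-0.96 ± 0.050; adjusted p = 2.88e-06), and Pfdn1 and Cct4 had changes of -0.97 ± 0.051 and -0.72 ± 0.046. The gene that rose was the prefoldin subunit Pfdn5, whose interaction was 1.34 ± 0.10 (adjusted p = 4.12e-05). Of 21 cytosolic co-chaperones 15 fell and 0 rose (median -0.18), with 6 higher and 9 lower when scaled by median of ratios, not far from the 58.9% and the 35.4% of all genes that were lower on these scales. Fkbp4, an HSP90 co-chaperone of steroid receptors, had a change of -1.19 ± 0.060 (adjusted p = 2.60e-06), Hspbp1, a nucleotide exchange factor of HSP70, of -0.80 ± 0.059, and Bag1, another one, of -0.67 ± 0.052.

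Hsph1 rose in the double mutant (0.25 ± 0.085), as given above, but the heat shock genes tested outside the 10 did not rise on the deposited scale. Of 11 listed heat shock factors and inducible genes 6 reached the expression minimum, of which 5 fell and 0 rose in the double mutant (3 lower and 1 higher under median-of-ratios scaling). Hspa4l, an HSP110 relative, went from 5.79 and 5.53 to 2.68 and 2.45 RPKM (-1.01 ± 0.059; adjusted p = 4.87e-06). Dnajb4, an HSP40, had a change of -0.92 ± 0.069, and Chordc1, an HSP90 co-chaperone, of -0.62 ± 0.071. The gene of the factor itself, Hsf1, was at 14.2 and 14.9 RPKM in WT and 9.66 and 10.1 in the double mutant.

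The ER lists were mixed. Of 26 ER folding enzymes and co-chaperones 4 rose and 10 fell in the double mutant on the deposited scale (median 0.20 relative to the median gene). But with median-of-ratios scaling 15 were higher and 4 were lower (median 0.26). Herpud1, of the ER degradation machinery, went from a mean of 11.3 to 21.2 RPKM (0.88 ± 0.050; adjusted p = 4.02e-06), while Canx, the membrane lectin partner of Calr, fell from 123 and 117 to 63.6 and 62.4 RPKM (-0.93 ± 0.054; adjusted p = 4.73e-06). Sil1, the exchange factor of Hspa5, had a change of -0.61 ± 0.051. Of the 6 listed genes with the ER element 3 fell and 0 rose, where 58.9% and 23.9% of all genes did, and under median-of-ratios scaling 2 were lower and 3 higher (35.4% and 41.1%). Of 9 tested sensors and factors of the unfolded protein response 3 rose and 1 fell, where 23.9% and 58.9% of all genes did, and under median-of-ratios scaling 8 were higher and 0 lower (41.1% and 35.4%). Of those that rose, Ppp1r15a, which restores translation, had a change of 0.77 ± 0.069 and the sensor Atf6 of 0.47 ± 0.072. The other was Atf3, a stress-induced transcription factor, which went from 0.0302 to 7.61 RPKM (3.93 ± 0.074). Atf3 was at most at 0.17 RPKM in the other HSPC libraries. It reached the expression minimum only through the double mutant, where it was high, so its test and its place in these counts are no support for a rise. The interaction was positive for 7 of these 9 genes, Atf3 among them, and negative for 0, against 39.2% and 27.6% of all genes. Derl3 is also in the plasma cell list, whose sum was lower in the mutants.

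**Figure D5:**
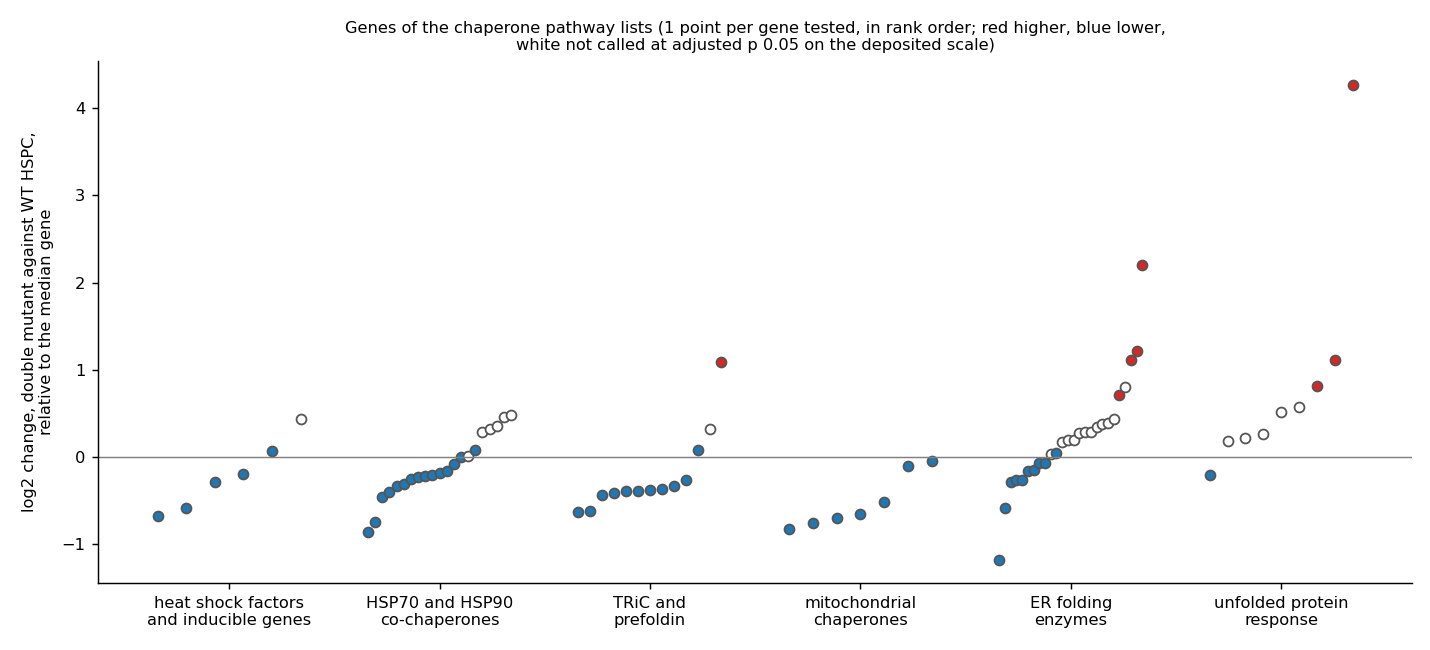
Log2 change of the genes of 6 chaperone pathway lists in the double mutant against WT HSPC, relative to the median gene (vertical axis), with 1 point per gene tested in rank order within its list. Red points rose, blue fell and white did not pass the test on the deposited scale. All 7 mitochondrial and 11 of 13 TRiC and prefoldin points are blue. The highest point is Atf3 at 4.27, a gene that reached the expression minimum only through the double mutant.

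In Npm1c 13 of 21 co-chaperones, 6 of 13 TRiC and prefoldin subunits, 5 of 7 mitochondrial chaperones, 16 of 26 ER folding genes and 7 of 9 unfolded protein response genes fell on the deposited scale, where 58.1% of all genes did, and 1 mitochondrial gene rose. Under median-of-ratios scaling 4, 0, 1, 3 and 5 genes of these lists were lower (21.6% of all genes) and 8, 6, 2, 5 and 0 higher (16.6%). The TRiC and prefoldin subunits thus went from 6 lower to 6 higher with the scaling, whereas the unfolded protein response genes called were lower on both scales. The sensor Atf6 had a change of -0.65 ± 0.072 (-0.39 relative; adjusted p = 8.80e-04) and Atf4, the PERK-arm factor, of -0.62 ± 0.096 (-0.36; adjusted p = 0.00239). In Flt3-ITD 8, 6, 3, 4 and 5 genes of these lists fell, where 31.3% of all genes did, among them Ahsa1, the HSP90 ATPase activator (-0.55 ± 0.076; -0.41; adjusted p = 0.00467), and 1 unfolded protein response gene rose. Under median-of-ratios scaling 4, 0, 0, 1 and 2 were lower (10.1% of all genes) and 2, 0, 1, 4 and 1 higher (8.18%), with 1 TRiC or prefoldin subunit lower and 2 higher in limma at an unadjusted p under 0.05.

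Genes were ranked by likeness of pattern, as Pearson correlation of log2(RPKM + 0.5) over the 8 HSPC libraries among 4320 candidates. The libraries share 4 groups, so the values mostly restate the group means. Closest to Hspa1a were Jund, Insig1 and B2m (0.991 to 0.992). Jund, an AP-1 factor, was at 4.87 and 5.39 RPKM in WT, 5.00 and 4.86 in Npm1c cells, 8.70 and 6.22 in Flt3-ITD cells and 20.9 and 21.3 in the double mutant. Closest to Hsp90aa1 were Fads2, Xpot and Rars2 (0.9994 to 0.9996), with Fads2 at 58.0 and 55.7 RPKM in WT and 16.5 and 16.4 in the double mutant. Closest to Calr were Serpinb1a, Cst7 and Scd2 (0.992 to 0.997), to Hspa5 Atxn10, Clec12a and Tmem160 (0.968 to 0.979) and to Hspa8 Srp9, Rbm3 and Map2k4 (0.9496 to 0.9879).

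Neutrophils held less of the chaperone transcripts than WT HSPC. The summed length-corrected level of the 10 genes was 496 and 502 RPKM in neutrophils, 2799 and 2753 in WT HSPC and 2004 and 1985 in the double mutant. Against WT HSPC 9 of the 10 fell and 0 rose by limma (0 also at an unadjusted p under 0.05), where 62.8% of 10174 genes tested fell and 28.4% rose (8 and 0 under median-of-ratios scaling, against 47.6% and 43.4%). Hsp90aa1 had the largest change of the 10, -3.30 ± 0.044 (-2.60 relative to the median gene; adjusted p = 2.09e-10), followed by Hsp90ab1 at -2.84 ± 0.082 (-2.14), Hspa8 at -2.39 ± 0.089 (-1.69), Calr at -2.36 ± 0.17 (-1.66) and Hsph1 at -2.25 ± 0.079 (-1.55). Hsp90b1 (-1.39 ± 0.13; -0.69), Hspa5 (-1.32 ± 0.094; -0.63) and Dnajb1 (-0.997 ± 0.073; -0.30) had smaller ones. Hspa1b passed the test (-0.75 ± 0.27; -0.05; adjusted p = 0.0293), a call that ended under median-of-ratios scaling (0.0776), with a pseudocount of 1 (0.104), with no filter (0.0545) and without any 1 of the 4 libraries compared (0.0678 to 0.113). Hspa1a did not pass (-0.41 ± 0.35, but 0.29 relative to the median gene; adjusted p = 0.282; 0.0257 with a pseudocount of 0.1), at 3 and 6 reads. Among the pathway lists all 7 mitochondrial chaperones and 12 of 13 TRiC and prefoldin subunits fell (7 and 11 under median-of-ratios scaling). Of 10 unfolded protein response genes 5 were higher and 5 lower on the deposited scale, with a median of 0.77 relative to the median gene, and with median-of-ratios scaling 8 were higher and 1 was lower. Chac1, not tested within the HSPC, is among the higher ones on both scales. It was at most at 0.35 RPKM in HSPC and reached the expression minimum only through neutrophils (5.04 and 4.76), so its call is no support for a rise.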

How the data were processed

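RNA-seq of 10 mouse libraries was analysed. Reads were depleted of ribosomal RNA before directional library preparation, per the labels' protocols. STAR 2.4.0, HTSeq, DiffBind and mm10 are named per the submitters' processing notes, without roles. The authors deposited RPKM per gene and library, while annotation, strand setting and the treatment of multiply mapped reads were not given in the sources used here. Whole reads were recovered for 16645 of 16655 genes (tolerance 0.02 reads), and the implied gene lengths equalled exons summed over all GENCODE M21 transcripts for 8 of the 10 members and 6984 of 16038 genes matched, so genes with many transcripts read low. Levels between genes therefore use merged exons.

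Values of log2(RPKM + 0.5) were tested in limma 3.58.1 under R 4.3.3, with a variance trend and Benjamini-Hochberg adjustment at 0.05, over the 9702 genes that reached 1 RPKM in 2 or more of the 8 HSPC libraries, or 10174 over 10 libraries for neutrophils. The fit and the read recovery were tested on simulated data. A change of low genes is understated on this scale. P-values measure the spread between these libraries. Members and lists were chosen with earlier results of these data known. Named genes were the members, up to 3 genes per pathway list and comparison with the smallest adjusted p, the 3 highest of each marker list, and the 3 most like in pattern; Pdia6, Dnajc3, Creld2 and Syvn1 were named outside this rule, for their promoters, after these were seen. Alternatives were other pseudocounts, scalings, filters, fits, a replicate block, a Y-linked term and leaving out each library. Summing Hspa1a and Hspa1b was added after seeing the data.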

Additional observations from a re-analysis of the deposited data

Results flagged for a closer look

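For 6 of the 10 genes the change that a mutation brought differed with the presence of the other, by the interaction test on the deposited log2 scale. The interaction was 3.28 for Hspa1a (adjusted p = 0.00131), 2.35 for Hspa1b (0.00201), -0.75 for Hsp90aa1 (8.08e-05), -0.38 for Hsph1 (0.0275), -0.37 for Dnajb1 (0.0192) and 0.55 for Hsp90b1 (0.0425), where 39.2% of all genes tested had a positive and 27.6% a negative one at this threshold, so that 6 of 10 is not above the share of all genes. With Y-linked expression as a term, that of Hsph1 was -0.29 (adjusted p = 0.109) and that of Dnajb1 -0.33 (0.0646). Leaving out single libraries also ended both, and that of Hsp90b1 did not pass under the replicate block (0.0505), with no filter (0.0783) or without any 1 library outside Flt3-ITD (0.0542 to 0.135).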

How the results depend on the processing

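Of 1084 alternative values for the 10 genes, 899 kept direction and side of the threshold, 84 lost the call, 42 gained one and 59 changed sign. The calls of Hspa1a, Hspa1b and Hsp90aa1 in the double mutant, against WT and each single mutant and in the interaction, held in every alternative run, as did Hsp90ab1 in the double mutant against WT and Hsph1 in Npm1c. Counts of higher or lower genes that moved by over 1.5 times, with some smaller moves, were as follows. With median-of-ratios scaling Npm1c had 2 higher and 0 lower, Flt3-ITD 3 higher and 0 lower, the double mutant 5 higher and 2 lower against WT and 5 and 2 against Flt3-ITD, and Npm1c against Flt3-ITD 2 higher. With scaling to the listed genes they were 2 higher and 1 lower in Npm1c, 4 higher and 3 lower in the double mutant (Hspa5 at 0.237, adjusted p = 0.0184) and 2 higher in Npm1c against Flt3-ITD. With quantile normalization they were 2 higher in Npm1c, 3 higher in Flt3-ITD (Hsph1 adjusted p = 0.0278), 4 higher and 2 lower in the double mutant (Hspa5 adjusted p = 0.00836), 3 lower in it against Flt3-ITD, 4 higher for the interaction and 1 higher in Npm1c against Flt3-ITD. With a term for Y-linked genes they were 5 lower in Npm1c, 3 lower in Flt3-ITD, 5 lower in Npm1c against Flt3-ITD, and 5 higher and 1 lower for the interaction. With only the groups compared in the fit they were 4 lower in Npm1c, 1 higher and 0 lower in Flt3-ITD, 5 lower in the double mutant against Npm1c and 0 lower in Npm1c against Flt3-ITD. With no filter they were 2 higher in the double mutant against Npm1c and 1 lower in Npm1c against Flt3-ITD. Leaving out 1 library, counts ran from 1 to 3 lower in Npm1c, 1 to 3 higher and 0 to 4 lower in Flt3-ITD, 2 to 3 higher and 3 lower in the double mutant, 2 to 4 higher and 2 to 4 lower against Npm1c, 2 to 3 higher and 3 to 5 lower against Flt3-ITD, 0 to 5 lower in Npm1c against Flt3-ITD, and 2 to 4 higher and 1 to 4 lower for the interaction. A group left with 1 library is assumed to vary like the others.

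Of the 59 sign changes, 11 were of values called on at least 1 side. These were Hsp90aa1 in Npm1c (0.23 with median-of-ratios, 0.15 with listed-gene and 0.195 with quantile scaling), Hspa8 in the double mutant (0.11 with median-of-ratios, 0.071 with quantile), Dnajb1 (0.0063) and Hsp90b1 (0.34) there with median-of-ratios, Hsp90ab1 with quantile scaling (0.020 against Npm1c, 0.095 against Flt3-ITD), Hspa5 against Flt3-ITD with median-of-ratios (0.23), and Calr in Flt3-ITD without replicate 1 (-0.23, against 0.41 without replicate 2). The other 48 were of values that passed on neither side. With median-of-ratios, listed-gene and quantile scaling in turn, Hspa8 was at 0.173, 0.092 and 0.085 and Dnajb1 at 0.23, 0.154 and 0.184 in Npm1c, Dnajb1 at 0.167, 0.076 and 0.130 in Flt3-ITD, and Hsp90ab1 at 0.034, 0.045 and 0.075 and Dnajb1 at 0.067, 0.078 and 0.054 in Npm1c against Flt3-ITD. With median-of-ratios and quantile scaling Hsp90aa1 was at 0.040 and 0.029 in Flt3-ITD. With median-of-ratios scaling Hspa5 was at 0.016 in Npm1c and Hsp90b1 at 0.050 in Flt3-ITD. With listed-gene and quantile scaling Hsp90b1 was at 0.120 and 0.103 in the double mutant, Hspa5 at 0.102 and 0.069 in the double mutant against Flt3-ITD, and Hspa8 at 0.0023 and 0.0018 in Npm1c against Flt3-ITD. With the term for Y-linked genes Hspa1a was at -0.184 in Npm1c, Hspa8 at -0.089, Hspa5 at -0.064 and Calr at -0.126 in Flt3-ITD, Hspa5 at 0.0995 in the double mutant against Flt3-ITD and the interaction of Calr at 0.0512. Leaving out 1 library, the change ran from -0.253 to 0.047 for Hspa8 and -0.137 to 0.059 for Dnajb1 in Npm1c, and in Flt3-ITD from -0.035 to 0.0512 for Hspa8, -0.059 to 0.0496 for Dnajb1, -0.088 to 0.195 for Hspa5 and -0.349 to 0.104 for Hsp90b1. It ran from -0.160 to 0.123 for Hspa5 and -0.185 to 0.268 for Hsp90b1 in the double mutant against Flt3-ITD, and from -0.261 to 0.039 for Hspa8, -0.176 to 0.038 for Hsp90ab1 and -0.133 to 0.064 for Dnajb1 in Npm1c against Flt3-ITD. The cause was not tested. Same-numbered libraries did not deviate together (correlations of -0.111 to 0.107 over genes). With the replicate block the double mutant against Npm1c had 2 lower (Hsp90ab1 adjusted p = 0.0662) and the interaction 2 higher (Hsp90b1 adjusted p = 0.0505), and no other call of the 10 genes changed. Hspa1a in neutrophils rests on 3 and 6 reads, so its level is limited by depth there.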
